A study of Homo sapiens with 30 samples.

Results

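The 9 genes described here are luminal identity factors and keratins of T47D, a luminal human breast cancer cell line: the transcription factors GATA3, FOXA1, SPDEF, TFAP2C and ELF3, the keratins KRT8, KRT18 and KRT19, and the adhesion gene CDH1. They were chosen by name and found by platform gene symbol. Each had a gene-level transcript cluster of its own, so that 9 of 22011 clusters are described, of which 14432 carried 1 gene symbol. Cells had been transfected at 10 nM with siRNA against the A, B, C or E subunit of NELF (groups siNELF-A to siNELF-E), or with a control siRNA against luciferase, and were harvested after 48 hours, a medium change and a further 48 hours. The 5 groups had 3 exon arrays each, 15 in all, made from total RNA of the same cell line with no other treatment named; where a value is given for all 4 knockdowns, it stands in the order A, B, C, E. The repeats were technical by the series text, so every p-value measures the spread between repeats and cannot separate an siRNA effect from a difference between cultures.

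Luminal cells line the milk ducts, and luminal breast tumours keep much of their transcription programme. FOXA1 is a pioneer factor that opens chromatin for the oestrogen receptor, GATA3 works with both at many enhancers, and TFAP2C and SPDEF act in the same programme, whereas KRT8 and KRT18 pair into the filaments of simple epithelia and E-cadherin, the CDH1 protein, joins neighbouring cells. NELF, the negative elongation factor, pauses RNA polymerase II just downstream of the start site, which is why the promoters of FOXA1 and SPDEF, the members that changed against control, are shown first.

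Both windows run from 250 bases before to 50 bases after a RefSeq start site (build GRCh38.p14, minus strand, 5′ to 3′). The FOXA1 window is chr14:37595200-37595499 and the SPDEF window is chr6:34556280-34556579. Capitals mark matches on either strand to any of 6 motifs. The GC box was searched as GGGCGG and the E-box that Snail-type repressors bind as CACCTG. The TATA box was searched as TATAAA and the forkhead motif as TGTTTAC. The GATA motif was searched as AGATAA and the AP-2 motif as GCCNNNGGC.
FOXA1 promoter: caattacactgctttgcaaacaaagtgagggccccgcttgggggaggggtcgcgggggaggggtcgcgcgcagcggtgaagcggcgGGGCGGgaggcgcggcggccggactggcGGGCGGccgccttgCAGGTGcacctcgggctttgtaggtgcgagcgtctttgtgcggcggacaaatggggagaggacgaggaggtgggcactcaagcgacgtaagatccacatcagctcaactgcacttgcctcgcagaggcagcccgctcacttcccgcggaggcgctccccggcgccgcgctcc
SPDEF promoter: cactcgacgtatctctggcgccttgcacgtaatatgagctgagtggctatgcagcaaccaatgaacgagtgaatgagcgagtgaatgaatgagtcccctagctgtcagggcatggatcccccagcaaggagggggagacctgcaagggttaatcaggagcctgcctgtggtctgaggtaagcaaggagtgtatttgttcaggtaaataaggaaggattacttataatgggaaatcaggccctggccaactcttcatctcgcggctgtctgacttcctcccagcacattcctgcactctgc
The FOXA1 window held 2 GC boxes, which begin at positions -164 and -136 from the start, and 1 E-box at -122, and 69.3% of its bases were G or C. No match to any of the 6 motifs lay in the SPDEF window, whose G and C content was 52%, against a median of 58.7% over all 35116 promoter windows. Of all windows, 45% held the GC box, 20.6% the E-box, 11.5% the TATA box, 3.42% the forkhead, 10.3% the GATA and 23.2% the AP-2 motif. The motifs can overlap, and a match describes these letters and is no measured binding site.

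Values are log2 robust multi-array averages (RMA), so that a difference of 1 is a factor of 2 in signal, and levels are not compared between genes because they rest on different probes. Arrays of the same group correlated at 0.9836 to 0.9895 outside siNELF-B and 0.9172 to 0.9729 in siNELF-B. There, replicate 2 correlated with the controls at 0.9845 on average and with its own group at 0.945, and replicate 3 had an interquartile range of 3.122, against 3.569 to 4.123 on all other arrays. The changes of the transcription factors and KRT8 in siNELF-B cells are therefore also given for replicate 1 alone. A fit with that single array takes its spread from the other groups, called 19.2% of all clusters in siNELF-B and gives no replicate check of that group. At the targets, NELFCD fell 10.7-fold in siNELF-C cells and NELFE 6.1-fold in siNELF-E cells (limma adjusted p = 1.67e-05 and 2.49e-05). NELFA, at a log2 change of -0.61 in siNELF-A cells, did not pass the test (adjusted p = 0.176), and NELFB was not analysed here, so 2 of the 4 labels have this check.

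The luminal label was checked first. GATA3, FOXA1, SPDEF, TFAP2C, KRT8, KRT18, KRT19 and CDH1 averaged 7.479 or more in every group, well above 3.901, the 40th percentile of all cluster means. ELF3, an epithelium-specific ETS factor, averaged 3.453 in control cells, between that level and the 25th percentile of 2.697, so it is described by log2 differences near the low end of the scale. Below the 40th percentile lay 8 of 10 CDH1 repressors and mesenchymal genes, 4 of 8 basal and myoepithelial, 5 of 7 leukocyte, 6 of 7 endothelial and 6 of 8 fibroblast markers. Above it were, among others, the basal markers KRT14 (5.285 over all arrays), EGFR (4.716) and SOX10 (4.472) and, of the mesenchymal list, TWIST1 (5.058) and FN1 (4.724). The mean level of the mesenchymal list was 2.721 to 2.784 on siNELF-A arrays, 2.745 to 2.882 on siNELF-B arrays, 2.843 to 2.908 on siNELF-C arrays and 2.675 to 2.738 on siNELF-E arrays, against 2.823 to 2.893 on control arrays. Whether these small shifts bear on the luminal genes was not tested.

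A gene was called when its Benjamini-Hochberg adjusted p over all clusters was below 0.05 in limma and its change at least 1.5-fold. Against control, FOXA1 and SPDEF fell in siNELF-A cells, SPDEF fell in siNELF-C cells and rose in siNELF-E cells, and none of the 9 genes was called in siNELF-B cells. Of all clusters, 3.32% were called in siNELF-A and 4.39% in siNELF-B cells, and 6.22% in siNELF-C and 5.48% in siNELF-E cells. The 9 members had 2, 0, 1 and 1 calls (knockdowns A, B, C, E), counts too small to be read against these shares. At an unadjusted limma p below 0.05 the members numbered 5, 5, 5 and 3, beside 17.2%, 29.6%, 25.1% and 16.6% of all clusters. Median log2 changes of the members were 0.03, -0.25, -0.22 and 0.06 (knockdowns A, B, C, E), beside -0.03, -0.14, -0.08 and -0.02 over all clusters. Over clusters at or above the 40th percentile, where all members but ELF3 lay, the medians were -0.12, -0.39, -0.23 and -0.06. The median of the members was thus not lower than that of these clusters in siNELF-B, and close to it in siNELF-C cells. In 5, 5, 8 and 4 of the 9 members the knockdown arrays lay all above or all below the control arrays (knockdowns A, B, C, E). The same held for 34.5%, 22.1%, 46.4% and 34.6% of all clusters, so such a separation is common and only describes the values. The 4 comparisons share the control arrays, so their members' values are set side by side and not counted as separate evidence.

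**Figure D1:**
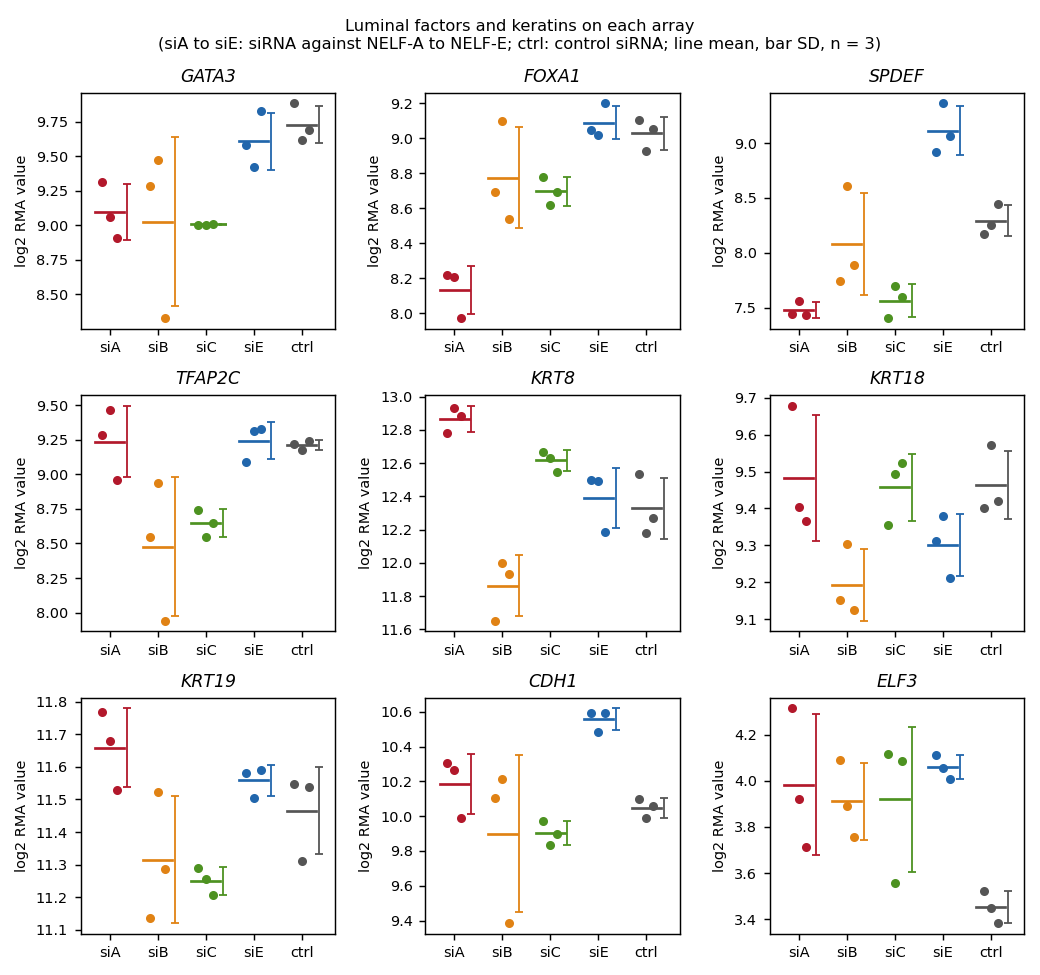
Log2 RMA value (vertical axis, a separate range in each panel) of the 9 genes on each of the 15 arrays, grouped by siRNA; points are arrays, lines means and bars SD (n = 3). The 3 siNELF-A arrays of FOXA1 lie below all other arrays, and SPDEF is highest on the 3 siNELF-E arrays (8.916 to 9.36).

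FOXA1 (transcript cluster 3561703, chromosome 14) was the pioneer factor with the clearest decrease. It measured 8.215, 8.204 and 7.971 on the siNELF-A arrays, against 9.106, 8.925 and 9.052 on the control arrays. SiNELF-B arrays gave 8.69, 9.098 and 8.537, siNELF-C arrays 8.78, 8.616 and 8.693, and siNELF-E arrays 9.05, 9.021 and 9.199. All siNELF-A values lay below every other array. FOXA1 fell 1.86-fold in siNELF-A cells (log2 change -0.90, SE 0.146, limma adjusted p = 0.00494). The call was kept without any 1 of the 15 arrays, with adjusted p between 0.000508 and 0.0311. In siNELF-C cells all arrays lay below control by a smaller amount that did not pass (-0.33, 95% interval -0.65 to -0.01, adjusted p = 0.182). SiNELF-B and siNELF-E arrays overlapped the controls (-0.25 and 0.06), and siNELF-B replicate 1 alone gave -0.34 (adjusted p = 0.127). The order of means was siNELF-E, control, siNELF-B, siNELF-C and siNELF-A, with no neighbouring pair called.

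Between knockdowns, FOXA1 was 1.95-fold higher in siNELF-E than in siNELF-A cells (log2 difference 0.96, SE 0.146, limma adjusted p = 0.0024), a comparison without the control arrays in which 4.05% of all clusters were called. That difference was called under all 24 alternatives run, at 0.87 to 1.09. FOXA1 was also higher in siNELF-B than in siNELF-A cells (0.65, adjusted p = 0.0283, where 4.28% of all clusters were called). The siNELF-B difference lost its call in 8 of 24 alternatives. Among them were those without siNELF-A replicate 1, 2 or 3 or siNELF-B replicate 1 (limma adjusted p 0.0718 to 0.089), and those without siNELF-B replicate 2 or both siNELF-B replicates 2 and 3, where the log2 difference was under the fold threshold (0.48 and 0.56).

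SPDEF (cluster 2951191, chromosome 6), an ETS factor of secretory luminal cells, was the member that differed most between knockdowns. Its values were 7.444, 7.562 and 7.431 in siNELF-A cells, against 8.174, 8.256 and 8.447 in control cells. SiNELF-B arrays gave 7.743, 8.613 and 7.889, siNELF-C arrays 7.406, 7.697 and 7.594, and siNELF-E arrays 8.916, 9.36 and 9.062. The siNELF-A and siNELF-C arrays were all below control, the siNELF-E arrays were all above it, and of the siNELF-B arrays replicate 2 was above control and the others below it. SPDEF fell 1.76-fold in siNELF-A cells (log2 change -0.81, SE 0.202, adjusted p = 0.0452) and 1.66-fold in siNELF-C cells (-0.73, SE 0.202, adjusted p = 0.0491), and rose 1.77-fold in siNELF-E cells (0.82, SE 0.202, limma adjusted p = 0.0308). These 3 calls sit near the threshold. Leaving out single arrays ended the siNELF-A call in 12 of 15 cases (adjusted p up to 0.184) and the siNELF-C call in 12 of 15 (up to 0.186). Both calls held without a siNELF-B array and ended without any 1 of the other 12. The siNELF-E call was lost in 6 of 15, without any 1 control or siNELF-E array (0.0501 to 0.14). The siNELF-A call was also lost under 75th percentile centring (-0.59, limma adjusted p = 0.0715). The siNELF-C call was lost in 17 of 25 alternatives and its change depended on the scaling. This change was -0.40 under quantile normalization and -0.58 under median centring. It was -0.38 under 75th percentile centring and -0.47 with each array's interquartile range in the model. Over all alternatives the changes ranged from -0.96 to -0.59 in siNELF-A, -0.79 to -0.38 in siNELF-C and 0.70 to 0.99 in siNELF-E cells. In siNELF-B cells SPDEF measured -0.21 over 3 arrays (adjusted p = 0.499) and -0.55 on replicate 1 alone (0.0568).

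The differences of SPDEF between knockdowns were larger than those from control. SPDEF was 3.1-fold higher in siNELF-E than in siNELF-A cells (log2 difference 1.63, SE 0.202, limma adjusted p = 0.000563) and 2.92-fold higher in siNELF-E than in siNELF-C cells (1.55, SE 0.202, adjusted p = 0.00087, where 5.18% of all clusters were called). Both were called under all 24 alternatives, at 1.51 to 1.73 and 1.33 to 1.65. It was 2.04-fold higher in siNELF-E than in siNELF-B cells (1.03, adjusted p = 0.0111, where 6.9% of all clusters were called), a call lost without siNELF-B replicate 1 (0.86, 0.0518) or siNELF-E replicate 2 (0.91, 0.0581). SiNELF-C and siNELF-A cells did not differ by the test (0.09, 95% interval -0.35 to 0.52).

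**Figure D2:**
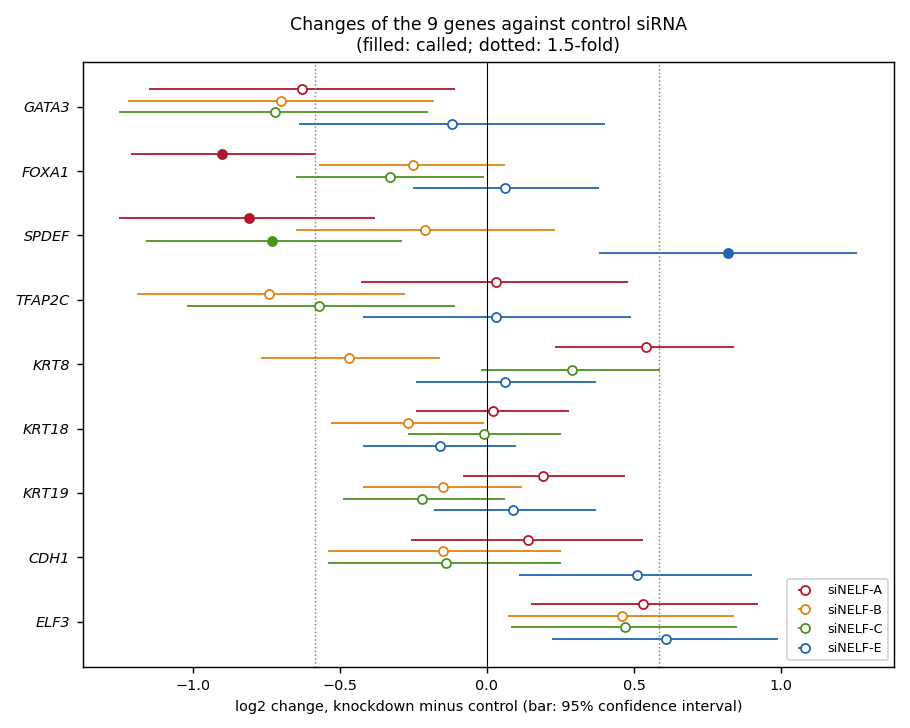
Log2 change of each gene (rows) in each knockdown against control (horizontal axis), with 95% confidence intervals from limma; filled points passed the adjusted p and the 1.5-fold threshold, drawn as dotted lines. The 4 filled points are FOXA1 in siNELF-A (-0.90) and SPDEF in 3 knockdowns (-0.81 in siNELF-A, -0.73 in siNELF-C, 0.82 in siNELF-E).

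GATA3 (cluster 3234277, chromosome 10), the zinc finger factor required for luminal differentiation, was below control on all 9 arrays of knockdowns A, B and C but was not called. In these knockdowns 34.5%, 22.1% and 46.4% of all clusters had no overlap with control, in either direction. SiNELF-A arrays gave 9.315, 9.063 and 8.912, siNELF-B arrays 9.283, 9.472 and 8.328, siNELF-C arrays 9.003, 9.004 and 9.013 and siNELF-E arrays 9.581, 9.421 and 9.827, against 9.884, 9.62 and 9.689 in control cells. SiNELF-E arrays overlapped the controls. Its log2 changes were -0.63, -0.70, -0.72 and -0.12 (knockdowns A, B, C, E, with SE 0.241, limma adjusted p = 0.193, 0.0866, 0.0878 and 0.897). Over all 25 alternatives they ranged from -0.74 to -0.39 in siNELF-A, -0.93 to -0.14 in siNELF-B and -0.78 to -0.31 in siNELF-C cells. A call was gained in 4, 1 and 5 of these. Leaving out single arrays gave -0.74 to -0.54, -0.93 to -0.35 and -0.78 to -0.65, so the smallest changes came from other settings. Without siNELF-B replicates 2 and 3 the SE was 0.133 and GATA3 was called lower in siNELF-A (adjusted p = 0.00826) and siNELF-C (0.00237), a setting in which 10.3% and 17.1% of all clusters were called. In siNELF-B cells it measured -0.45 on replicate 1 alone (adjusted p = 0.117).

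TFAP2C (cluster 3890333, chromosome 20) encodes the AP-2 gamma factor. It measured 8.549, 8.941 and 7.942 in siNELF-B cells and 8.746, 8.544 and 8.648 in siNELF-C cells, against 9.223, 9.175 and 9.242 in control cells. SiNELF-A values of 9.289, 9.467 and 8.959 and siNELF-E values of 9.093, 9.317 and 9.326 overlapped the controls. The siNELF-B and siNELF-C arrays were all lower than control without a call (-0.74 and -0.57, SE 0.211, limma adjusted p = 0.0594 and 0.121). Over 25 alternatives the change ranged from -1.0 to -0.20 in siNELF-B cells, with a call in 4. In siNELF-C cells it ranged from -0.62 to -0.17 without a call. SiNELF-B replicate 1 alone gave -0.66 (adjusted p = 0.0258), a value of 1 array. TFAP2C was 1.7-fold higher in siNELF-E than in siNELF-B cells (0.77, adjusted p = 0.0448), but this call was lost in 17 of 24 alternatives, including 13 of the 15 that left out an array (adjusted p up to 0.143), whereas it passed without siNELF-B replicate 2 or siNELF-A replicate 3.

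ELF3 (cluster 2375011, chromosome 1) was above control on all 12 knockdown arrays. Levels were 3.715 to 4.314 on siNELF-A arrays, 3.757 to 4.089 on siNELF-B arrays, 3.559 to 4.116 on siNELF-C arrays and 4.01 to 4.111 on siNELF-E arrays, against 3.385 to 3.524 in control cells. None of the 4 differences was called (0.53, 0.46, 0.47 and 0.61, limma adjusted p = 0.139, 0.117, 0.129 and 0.0697). SiNELF-B replicate 1 alone gave 0.64, a value of 1 array. The siNELF-E difference passed in 10 of 24 alternatives, among them quantile normalization and centring on medians or 75th percentiles. At this level the arrays limit what can be said. Its brightest exon-level probe set, 2375017, measured 1.39, 0.09, 1.37 and 1.66 (knockdowns A, B, C, E) without a call, so it hardly changed in siNELF-B cells.

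Among the keratins, KRT8 (cluster 3455516, chromosome 12), the type II partner of simple epithelia, differed between knockdowns. SiNELF-A arrays gave 12.78, 12.933 and 12.886, siNELF-B arrays 11.653, 12.001 and 11.931, siNELF-C arrays 12.67, 12.632 and 12.548 and siNELF-E arrays 12.501, 12.493 and 12.185, against 12.536, 12.181 and 12.27 in control cells. All siNELF-A and siNELF-C arrays were above control, all siNELF-B arrays were below it, and siNELF-E overlapped it. Changes against control were 0.54, -0.47, 0.29 and 0.06 (knockdowns A, B, C, E; SE 0.14, limma adjusted p = 0.0559, 0.0647, 0.222 and 0.909), none of them called. KRT8 was 2.01-fold lower in siNELF-B than in siNELF-A cells (log2 difference -1.0, SE 0.14, adjusted p = 0.00317), a call kept in all 24 alternatives at -1.21 to -0.76. Against control, siNELF-B replicate 1 alone gave -0.68 (limma adjusted p = 0.0178), a value of 1 array, and over all arrays the siNELF-B change was 0.0 under 75th percentile centring. It was 1.69-fold higher in siNELF-C than in siNELF-B cells (0.75, adjusted p = 0.0154, where 2.14% of all clusters were called), which was lost without siNELF-B replicate 1 or any siNELF-C array (adjusted p up to 0.0839), under 75th percentile centring and with probe set medians.

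Its type I partner KRT18 (cluster 3415576, chromosome 12) had no call at gene level. It ranged over 9.367 to 9.678 on siNELF-A arrays, 9.124 to 9.305 on siNELF-B arrays, 9.355 to 9.523 on siNELF-C arrays and 9.211 to 9.379 on siNELF-E arrays, against 9.4 to 9.571 in control cells. SiNELF-B and siNELF-E arrays lay below control by -0.27 and -0.16 without a call (limma adjusted p = 0.157 and 0.598). KRT19 (cluster 3757108, chromosome 17), a type I keratin of ductal epithelia, ranged over 11.137 to 11.768 on the knockdown arrays and 11.311 to 11.546 on the control arrays, with log2 changes of 0.19, -0.15, -0.22 and 0.09 and adjusted p of 0.304 or more. The RefSeq gene table lists 52 numbered pseudogene symbols for KRT8, 68 for KRT18 and 5 for KRT19, so keratin probes may also read near-identical copies and these values are uncertain in that respect.

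CDH1 (cluster 3666409, chromosome 16), E-cadherin, was highest in siNELF-E cells. Its values were 10.59, 10.484 and 10.595 there, against 10.1, 9.987 and 10.056 in control cells, and no array of any other group reached them. SiNELF-A arrays gave 10.304, 10.268 and 9.988, siNELF-B arrays 10.104, 10.211 and 9.386 and siNELF-C arrays 9.972, 9.837 and 9.899. The change in siNELF-E was 1.42-fold, below the fold threshold (0.51, SE 0.183, limma adjusted p = 0.15). It was called under quantile normalization, centring on medians or 75th percentiles, and when each array's interquartile range entered the model, at 0.59 to 0.64. CDH1 was 1.58-fold higher in siNELF-E than in siNELF-B cells (0.66, adjusted p = 0.0472), a call lost in 22 of 24 alternatives, including 14 of the 15 that left out an array (all but siNELF-B replicate 2) and the setting without siNELF-B replicates 2 and 3 (0.45).

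Exon-level probe sets, each covering part of an exon, showed whether the members moved along their whole transcripts. The 9 genes had 106 probe sets of their own symbol, and 8 further probe sets of KRT19 were shared with another symbol. Of the 106, limma called 1, 0, 0 and 0 (knockdowns A, B, C, E), where 0.618%, 0.164%, 1.15% and 1.6% of all probe sets were called. At an unadjusted p below 0.05 there were 30, 19, 19 and 11, beside 12%, 20.8%, 17.3% and 11.2% of all probe sets. The called probe set was FOXA1 3561736 (log2 change -1.43, SE 0.244, limma adjusted p = 0.0163).

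Signs were uniform along several transcripts. All 9 FOXA1 probe sets were lower in siNELF-A (-1.43 to -0.21). For SPDEF, 10 of 10 were lower in siNELF-A (-1.34 to -0.19) and in siNELF-C (-1.32 to -0.02), and 10 of 10 were higher in siNELF-E (0.26 to 1.08). TFAP2C had 11 of 11 lower in siNELF-B (median -0.62) and in siNELF-C (median -0.56). GATA3 had 12 of 13 lower in each of the knockdowns A, B and C. KRT8 had 18 of 18 and KRT18 16 of 16 higher in siNELF-A (medians 0.36 and 0.34), and 17 of 18 and 15 of 16 lower in siNELF-B (medians -0.40 and -0.38). Gene-level clusters at or above the 40th percentile had medians of -0.12, -0.39, -0.23 and -0.06 (knockdowns A, B, C, E). The siNELF-B medians of both keratins were thus close to that general shift, and the signs of all probe sets were not counted. CDH1 had 20 of 21 higher in siNELF-E (median 0.48). Probe sets of a gene read the same RNA on the same arrays and are not replicates, and most of these changes did not pass on their own.

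**Figure D3:**
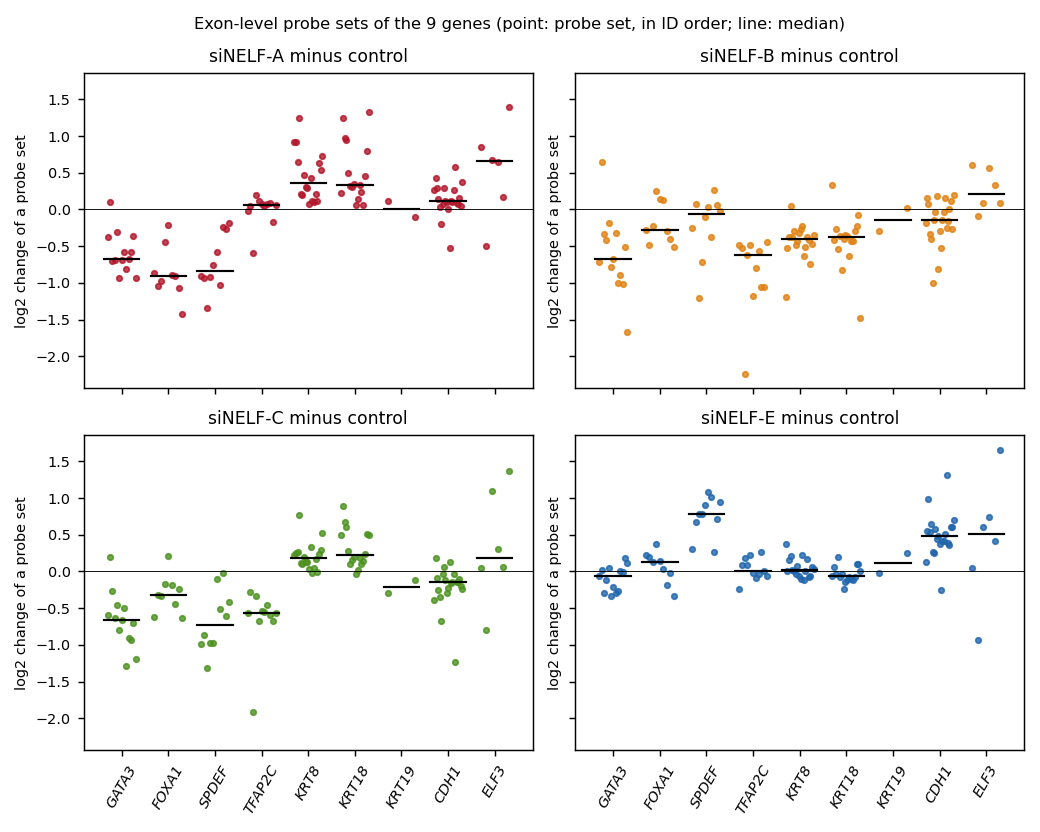
Log2 change against control (vertical axis) of each of the 106 probe sets of the 9 genes (horizontal axis, in order of probe set ID), with a panel for each knockdown and a line at each gene's median. SPDEF points lie below 0 in siNELF-A and siNELF-C and above 0 in siNELF-E, while KRT8 and KRT18 points lie above 0 in siNELF-A.

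The gene-level value did not summarise every member alike. For KRT8 it was identical on all arrays to probe set 3455593 (largest difference 0.0), so that its gene-level result is that of 1 of 18 probe sets, although the median of its probe sets also put it lower in siNELF-B than in siNELF-A cells. For KRT18 the gene-level mean was 9.379, whereas the median of its 16 probe sets was 12.246, and across the 15 arrays the probe sets correlated with the gene-level value at a median r of 0.61. With probe set medians KRT18 was called lower in siNELF-B than in siNELF-A cells (-0.79, limma adjusted p = 0.0226), against -0.29 (0.204) at gene level. For FOXA1, SPDEF, TFAP2C, GATA3, KRT19 and CDH1 that median r was 0.81 to 0.93, over values that share the same arrays. For ELF3 it was 0.43, with a lowest r of -0.1 among its 6 probe sets. With the median of probe sets in place of the cluster, FOXA1 and SPDEF remained called in siNELF-A, while SPDEF lost its calls in siNELF-C (-0.64, limma adjusted p = 0.107) and siNELF-E (0.78, adjusted p = 0.0651).

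Exon usage compares a probe set's change with that of its gene and was tested for 103 member probe sets with limma's diffSplice. The test called 0 in each knockdown, where 0.176%, 0.623%, 0.439% and 0.119% of all 195170 probe sets were called (knockdowns A, B, C, E). At an unadjusted p below 0.05 there were 6, 9, 5 and 3 of 103, beside 5.48%, 10%, 7.51% and 3.94% of all probe sets. Without siNELF-B replicates 2 and 3 there were 3, 5, 5 and 0 calls, where 1.5%, 3.04%, 3.37% and 0.727% of all probe sets were called, and those in siNELF-B rest on 1 array. TFAP2C 3890337 was lower relative to its gene in siNELF-B (-1.53, adjusted p = 0.0262) and siNELF-C (-1.39, 0.0019) in that setting, KRT8 3455569 higher in siNELF-A (0.83, 1.56e-05) and siNELF-C (0.60, 0.00282), and GATA3 3234283 higher in siNELF-B (1.34, 0.012) and siNELF-C (0.95, 0.0111). These 3 probe sets were named after their values were seen.

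Other luminal transcription factors were called in every knockdown. Of 16 measured, 6, 1, 5 and 1 fell (knockdowns A, B, C, E), 2 rose in siNELF-E cells, and the list medians were -0.62, -0.41, -0.18 and 0.12. At an unadjusted limma p below 0.05 there were 10, 7, 8 and 8, beside 17.2%, 29.6%, 25.1% and 16.6% of all clusters. The counts were not compared between knockdowns by a test. Of all clusters, 2.83%, 4.19%, 5.3% and 4.04% were called lower, and 1.44% higher in siNELF-E. Over the clusters at or above the 40th percentile the median changes were -0.12, -0.39, -0.23 and -0.06. ESR1, the oestrogen receptor that FOXA1 and GATA3 serve, fell in all 4 knockdowns (-1.21, -0.89, -1.37 and -1.07, limma adjusted p = 0.00299, 0.0259, 0.00139 and 0.0033). Its siNELF-B call was lost without any 1 control array or siNELF-B replicate 1. MYB, an oestrogen-responsive factor of luminal cells, fell 4.7-fold in siNELF-A (log2 change -2.23, limma adjusted p = 0.00488) and 3.19-fold in siNELF-C cells (-1.68, adjusted p = 0.018, lost without any 1 control or siNELF-C array). GRHL2, which maintains epithelial junctions, fell 2.53-fold in siNELF-A (-1.34, adjusted p = 0.0158) and 2.25-fold in siNELF-C cells (-1.17, 0.0224), and both calls were lost without any 1 control array, the siNELF-A call also without siNELF-A replicate 2 or 3 and the siNELF-C call without any siNELF-C array. PGR, the progesterone receptor, had log2 changes of -1.08, -0.91, -1.06 and -0.67, called in siNELF-A and siNELF-C, and lost in 12 and 6 of the 15 refits without an array. MYB and GRHL2 were also below control on all siNELF-B and siNELF-E arrays, without a call (limma adjusted p = 0.0574 to 0.0917). MYB measured -1.20 and -1.16 in siNELF-B and siNELF-E cells, and GRHL2 -0.95 and -0.85. TRPS1 and ELF5, without a call against control, measured -0.64 and -0.58 in siNELF-A and -0.22 and 0.49 in siNELF-E cells. Between these knockdowns ELF5 was called higher in siNELF-E than in siNELF-A cells (log2 difference 1.07, limma adjusted p = 0.00285).

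PIP, TFF3, LMO4, FBP1 and AGR2, named for the size of their change, were lowest in siNELF-A and highest in siNELF-E cells, as SPDEF was. Others of the luminal marker list were not, among them TFF1 (-1.25 in siNELF-A and -0.80 in siNELF-E), SCUBE2 (0.40 and 0.06) and PRLR (-0.66 and -1.16, the last called lower at a limma adjusted p of 0.00276), 3 genes picked after their values were seen. TFF1 was called lower in siNELF-A cells (adjusted p = 0.0301). PIP, a prolactin-induced secreted protein, measured 7.301, 7.42 and 7.678 in siNELF-A and 10.615, 11.236 and 11.037 in siNELF-E cells, against 9.312, 9.499 and 9.418 in control cells. PIP fell 3.85-fold in siNELF-A (log2 change -1.94, limma adjusted p = 0.00494) and rose 2.93-fold in siNELF-E cells (1.55, adjusted p = 0.0105, lost without siNELF-E replicate 2). TFF3, a trefoil peptide induced by oestrogen, measured 5.657, 5.526 and 5.708 in siNELF-A and 8.059, 8.274 and 7.917 in siNELF-E cells, against 6.916, 6.623 and 6.62 in control cells. It fell 2.13-fold in siNELF-A (-1.09, adjusted p = 0.00481, lost under quantile normalization) and rose 2.57-fold in siNELF-E cells (1.36, adjusted p = 0.000521). LMO4, a LIM-only cofactor, fell in siNELF-A (-1.13, adjusted p = 0.0187) and rose in siNELF-E (0.86, adjusted p = 0.0473), calls lost in 4 and 13 of the 15 refits without an array. FBP1, a gluconeogenic enzyme, fell 3.35-fold in siNELF-A (-1.75, adjusted p = 0.000349) and measured 0.68 in siNELF-E (0.0593). AGR2, a disulfide isomerase of secretory cells, fell 3.18-fold in siNELF-A (-1.67, adjusted p = 0.0313), a call lost without any 1 control or siNELF-A array.

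Set directly against each other, siNELF-E cells had higher levels than siNELF-A cells of PIP (log2 difference 3.50, limma adjusted p = 6.88e-05), TFF3 (2.45, 1.17e-05), FBP1 (2.43, 2.32e-05) and LMO4 (2.0, 0.000374), as they had of SPDEF and FOXA1. These 4 calls were kept without any 1 of the 15 arrays. AGR2 was also called higher (1.91, limma adjusted p = 0.0118), but lost that call in 3 of the 15 refits without an array (adjusted p up to 0.0573). In this comparison 5 of 15 luminal marker and target genes and 3 of 16 other luminal factors were called higher and 0 lower, with list medians of 0.63 and 0.41, against -0.01 over all clusters, of which 2.56% were called higher. Against control, 6, 0, 3 and 1 of the luminal markers fell (knockdowns A, B, C, E), and 2 rose in siNELF-E cells. An unadjusted limma p below 0.05 was reached by 9, 7, 10 and 6, beside 17.2%, 29.6%, 25.1% and 16.6% of all clusters. CA12 and MUC1, without a call, measured -0.06 and -0.67 in siNELF-A and -0.14 and 0.08 in siNELF-E cells.

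**Figure D4:**
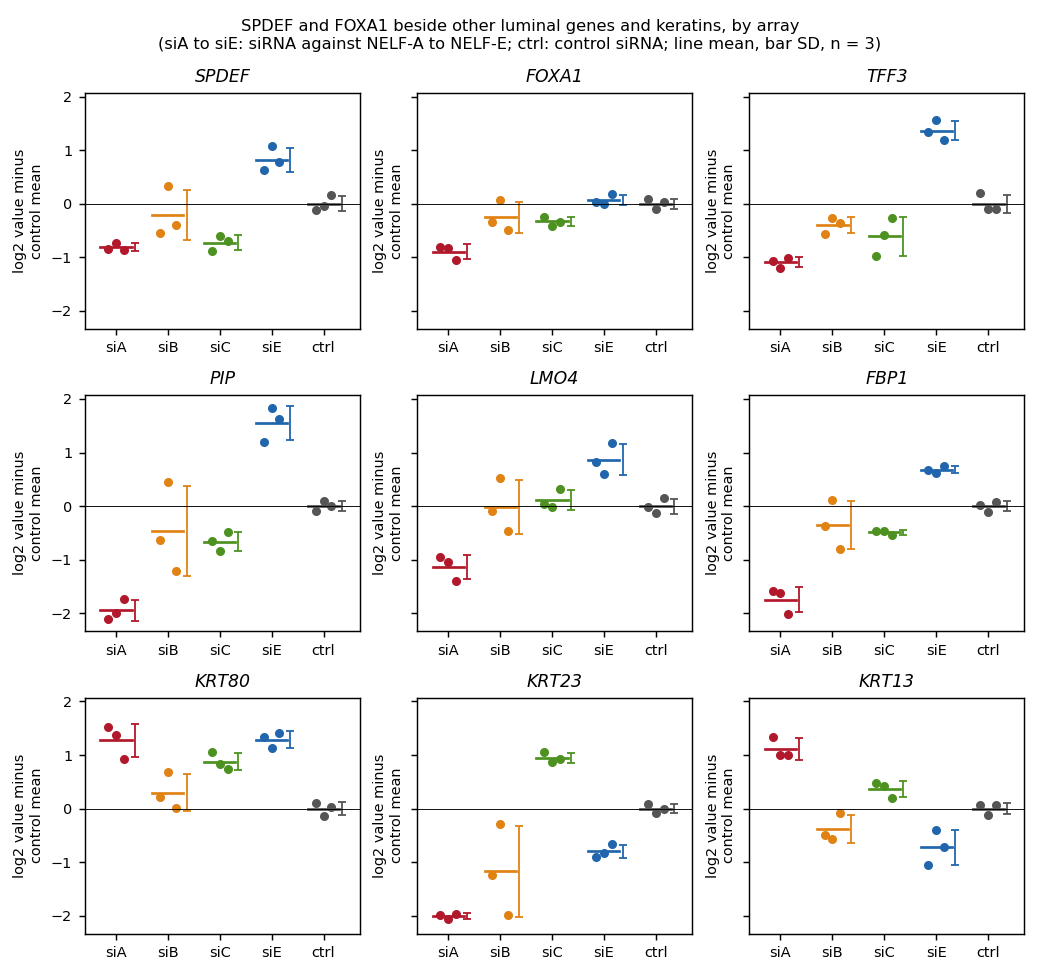
Log2 value minus the control mean (vertical axis, shared) of SPDEF, FOXA1, TFF3, PIP, LMO4, FBP1 and the keratins KRT80, KRT23 and KRT13 on each array, grouped by siRNA; lines are means and bars SD (n = 3). TFF3 and PIP, like SPDEF, lie below 0 on all siNELF-A arrays and above it on all siNELF-E arrays.

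Keratins outside the 9 genes moved in differing directions. Of 7 measured, 2 rose and 1 fell in siNELF-A, 2 fell in siNELF-B, 2 rose in siNELF-C, and 2 rose and 1 fell in siNELF-E. In either direction 3.32%, 4.39%, 6.22% and 5.48% of all clusters were called (knockdowns A, B, C, E). An unadjusted limma p below 0.05 was reached by 3, 2, 4 and 4 of the 7 keratins, beside 17.2%, 29.6%, 25.1% and 16.6% of all clusters. KRT80, a keratin linked to terminal differentiation, rose 2.42-fold in siNELF-A (log2 change 1.27, limma adjusted p = 0.00328), 1.83-fold in siNELF-C (0.87, 0.02, lost without any control array or siNELF-C replicate 1 or 2) and 2.44-fold in siNELF-E cells (1.29, 0.00139). KRT23 fell 4.01-fold in siNELF-A (-2.0, adjusted p = 0.00267) and 2.26-fold in siNELF-B cells (-1.17, 0.0455, lost in 14 of 15 refits without an array), and measured 0.95 in siNELF-C cells (0.0724). KRT13, a mucosal keratin, rose in siNELF-A (1.11, adjusted p = 0.00573) and fell in siNELF-E cells (-0.73, 0.0371, lost in 8 of 15 refits without an array and under quantile normalization, both centrings and the replicate block). KRT4 rose in siNELF-C cells (1.58, adjusted p = 0.000235), to a level of 5.33 against 3.746 in control cells, which is below the 40th percentile. KRT20 was not called and averaged 2.1.

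The epithelial junction list, which holds catenins, claudins, desmosomal genes and others, had 0 calls in limma among 18 measured in each knockdown. Of all clusters 3.32%, 4.39%, 6.22% and 5.48% were called (knockdowns A, B, C, E), so with 18 genes 0 calls cannot be told from these shares. At an unadjusted limma p below 0.05 there were 3, 5, 7 and 1 of the 18, beside 17.2%, 29.6%, 25.1% and 16.6% of all clusters. The list medians were -0.16, -0.24, -0.25 and 0.16. Over clusters at or above the 40th percentile the medians were -0.12, -0.39, -0.23 and -0.06. Without siNELF-B replicates 2 and 3, 0, 5 and 0 junction genes were lower (knockdowns A, C, E) and 2 were higher in siNELF-E cells. In that setting 10.3%, 17.1% and 10.7% of all clusters were called. JUP, the desmosomal plakoglobin, and the protease ST14 measured 0.20 and 0.34 in siNELF-E and -0.17 and -0.35 in siNELF-A cells. Of the 10 CDH1 repressors and mesenchymal genes, FN1, fibronectin, was called, lower in siNELF-A (-1.96, limma adjusted p = 0.00299) and in siNELF-E cells (-1.25, 0.0234, lost without any 1 control or siNELF-E array). SNAI1, a repressor of CDH1, averaged 2.988 and measured -0.08 and -0.18 in siNELF-A and siNELF-E cells, and TWIST1 -0.09 and -0.13. Limma called 0 of 8 basal, 7 endothelial and 8 fibroblast markers in any knockdown (at most 1 of a list at an unadjusted p below 0.05). These lists are too short to read 0 calls against the shares of all clusters. MS4A1, a B-cell marker, was called higher in siNELF-B (1.44, adjusted p = 0.0236) at a level of 4.242, against 2.806 in control cells, and lost that call without any 1 control array or siNELF-B replicate 1.

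Profiles most like those of the members were taken from 9212 single-symbol clusters above the 40th percentile, by Pearson correlation over the 15 arrays, which share arrays and groups. SPDEF was most like PLA2R1 (r = 0.963) and ZG16B (0.952). FOXA1 was most like CHDH (0.976) and ERAP1 (0.974). GATA3 had MAP3K2 (0.954) and UBN1 (0.95), TFAP2C had SERINC5 (0.976) and CARS1 (0.974), and CDH1 had UBE3B (0.97) and VSIG10 (0.964). KRT8 had HCCS (0.928) and PHB1 (0.903), KRT19 had TOMM22 (0.946) and TRIB3 (0.939), KRT18 had PIH1D1 (0.851) and CARD19 (0.838), and ELF3 had GNG5 (0.813) and PXN (0.797). Among the members, FOXA1 and SPDEF correlated at 0.78 and TFAP2C and CDH1 at 0.79. KRT8 with FOXA1 gave -0.5 over 15 arrays and -0.85 over the 12 without siNELF-B, and KRT8 with KRT18 gave 0.6 and 0.18.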

How the data were processed

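T47D RNA on Affymetrix exon arrays was measured in 5 siRNA groups of 3 arrays. As deposited by the authors, values were log2 RMA values; per the labels they came from ArrayAssist, for core exons, with build hg18. A gene-level table (22011 clusters) and an exon-level table (287329 probe sets) held the same arrays, and every value column was used. Symbols came from the platform annotation, updated through RefSeq; a cluster or probe set with several symbols was not named.

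A mean for each siRNA group was fitted in a single linear model to all 15 arrays (R 4.3.3, limma 3.58.1), with p-values adjusted by the Benjamini-Hochberg method over all features. Exon usage was tested on probe sets at or above the 25th percentile, in genes with at least 3 of them. Alternatives were quantile normalization, centring on medians or 75th percentiles, a 40th percentile filter, array weights, the replicate number as a block, the interquartile range as a covariate, 2 groups alone, probe set medians, and leaving out arrays. Precision is limited by the number of arrays. The 9 genes, the lists and the tests were chosen with earlier results of these data known. Besides the 9 genes, the NELF subunits, ESR1 and PGR, the text names up to 4 called genes of each list by the largest change, up to 2 genes without a call by the highest mean, and 2 profiles most like each member.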

Additional observations from a re-analysis of the deposited data

Results flagged for a closer look

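Members whose changes had opposite signs in 2 knockdowns, or a value near 0 in one of them, and differed by the limma test between them were SPDEF, at 1.63 in siNELF-E minus siNELF-A (adjusted p = 0.000563), 1.55 in siNELF-E minus siNELF-C (0.00087) and 1.03 in siNELF-E minus siNELF-B (0.0111), and FOXA1, at 0.96 in siNELF-E minus siNELF-A (0.0024). The siNELF-E change of FOXA1 against control was 0.06 (adjusted p = 0.917) and -0.28 with probe set medians, so its sign is not settled. KRT8 differed in the same way, at -1.0 in siNELF-B minus siNELF-A (adjusted p = 0.00317) and 0.75 in siNELF-C minus siNELF-B (0.0154). TFAP2C at 0.77 (adjusted p = 0.0448) and CDH1 at 0.66 (0.0472), both in siNELF-E minus siNELF-B, were near the threshold and rest on the siNELF-B group, whose arrays differ most among themselves. With 3 arrays a group, no outlier test was applied to single values.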

How the results depend on the processing

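Of the called member results, FOXA1 in siNELF-A against control, FOXA1 and SPDEF in siNELF-E minus siNELF-A, SPDEF in siNELF-E minus siNELF-C, and KRT8 in siNELF-B minus siNELF-A kept their calls under every alternative run, and no called change turned its direction. Member calls against control were 2, 0, 1 and 1 (knockdowns A, B, C, E, also below), and 9 calls were made between knockdowns. In a pair of knockdowns 2.14% to 6.9% of all clusters were called. Leaving out single arrays gave 1 to 3, 0 to 2, 0 to 2, 0 to 2 and 4 to 14, the lowest and highest of the last without siNELF-B replicate 1 and 2. Quantile normalization gave 3, 0, 0 and 3, where 1056, 683, 1567 and 1632 of all 22011 clusters were called. Median centring gave 4, 1, 1 and 3 (959, 767, 1691 and 1587 clusters). With 75th percentile centring the counts were 1, 1, 1 and 3 (1084, 740, 1650 and 1757 clusters). Under both centrings SPDEF lost its siNELF-C call, and the call counted there was ELF3, higher. The 40th percentile filter gave 1 call in siNELF-B, where 1926 of 13207 clusters were called. Without siNELF-B replicates 2 and 3 together the counts were 3, 2, 2 and 2, and array weights gave 3, 3, 2 and 2. Fits of the 2 groups alone gave 3, 0, 2 and 2, where 1978, 12, 3781 and 2393 clusters were called. With each array's interquartile range in the model the counts were 2, 0, 0 and 3 (1485, 228, 1367 and 2170 clusters). With probe set medians the member counts were 2, 0, 0 and 0. Under quantile normalization, median and 75th percentile centring the median change of all clusters was 0.04 to 0.05, 0.07 to 0.10 and 0.11 to 0.32, and 17.6% to 53% of calls were higher, where as deposited 109 of 731, 45 of 967, 203 of 1369 and 317 of 1206 were. Member probe sets called numbered 1, 0, 0 and 0, 2, 0, 1 and 5 under quantile normalization, and 18, 4, 13 and 5 without siNELF-B replicates 2 and 3 (4.05%, 5.04%, 10.9% and 4.66% of all probe sets). Exon usage calls were 0 in each, 1, 3, 0 and 0 under quantile normalization, and 3, 5, 5 and 0 without those arrays. The numbers of replicates did not pair the samples: deviations of same-numbered arrays correlated at -0.30 to 0.20 (median -0.01, 30 pairs). With the replicate block the counts were 2, 0, 1 and 1 (567, 421, 1010 and 1035 clusters), and 3 calls between knockdowns were lost. Signal over background was not given, which limits ELF3 most. The causes of these shifts were not tested.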
